A study of Mus musculus with 24 samples.

Results

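The nuclear genes of oxidative phosphorylation were taken as every probe set whose single annotated gene symbol names a subunit of respiratory complexes I to V or cytochrome c, with symbols of assembly factors and pseudogenes left out and 1 probe set per gene, the one with the highest mean. The rule gave 83 genes out of 23410 transcripts on the array. They were 34 genes of complex I, 4 of complex II, 9 of complex III, 18 of complex IV, 17 of complex V and Cycs, the gene of cytochrome c. Where a gene had several probe sets (18 of the 83 genes), the annotation gave no positions, so whether the brightest one lies at the gene itself or at a copy elsewhere was not checked. Ndufa4 was counted in complex IV, where its protein is now placed in spite of its name. Of the 83 genes, 78 had a mean above the median of all transcripts and 55 lay among the 2341 brightest transcripts.

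Expression was measured in punches of the ventral tegmental area (VTA), the midbrain region that holds dopamine neurons of the reward system, by 1 whole-transcript array per mouse. The 24 mice were wild-type male C57BL/6N, 10 to 12 weeks old, kept in 12 h of light and 12 h of darkness with chow and water freely available, and no group received a treatment. Groups of 4 mice were killed every 4 h from ZT0 to ZT20, where ZT (Zeitgeber time) counts hours from lights on, so mice rest at ZT0 to ZT8 and become active from ZT12. The labels give this spacing, the methods of the study state another one, and the labels were followed.

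Oxidative phosphorylation makes most of the ATP of a neuron. Complexes I and II pass electrons from NADH and succinate to ubiquinone, complex III hands them to cytochrome c, and complex IV gives them to oxygen. Complexes I, III and IV pump protons across the inner mitochondrial membrane, and complex V, the ATP synthase, uses the gradient to make ATP. A few core subunits of complexes I, III, IV and V are encoded by mitochondrial DNA and all the other subunits by the nucleus, and factors such as NRF1, GABPA (an ETS factor) and YY1 are known to act on many of these nuclear promoters.

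Values are on the log2 scale, so a difference of 1 is a factor of 2, and every test below comes from limma fits over all 23410 transcripts. Array medians ranged from 6.71 to 6.79, while the spread (SD across transcripts) ranged from 1.33 on ZT20 replicate 4 to 1.45 on ZT0 replicate 1. ZT0 replicate 4 stood apart, with a median correlation of 0.970 with the other arrays, and several values are also given without it. The dopamine neuron markers Th and Slc6a3 were both measured, with means of 7.76 and 8.48. In a bulk punch, fewer cells of a type and less RNA per cell cannot be told apart.

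A promoter window (250 bases before to 50 after the start, RefSeq, GRCm38.p6) was on hand for 68 of the 83 genes, 73 windows in all. Searched on both strands, the NRF1 motif (GCGC, then any base, then TGCGC) lay in 17 of these windows (23.3%, against 4.6% of 32851 windows of all genes), the ETS motif CCGGAAGT in 5 (6.85%, against 3.89%) and the YY1 motif AAGATGGCG in 7 (9.59%, against 1.4%). At least 1 of the 3 lay in 27 windows (37%, against 9.24%). The 150 bases before the start are shown for 5 genes whose probe sets are described below, on the strand of the gene, with capitals marking a motif.
Ndufa12, chr10:94198885-94199034, plus strand: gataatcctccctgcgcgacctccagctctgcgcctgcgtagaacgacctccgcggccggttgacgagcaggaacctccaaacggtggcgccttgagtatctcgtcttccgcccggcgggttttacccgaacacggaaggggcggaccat
Cycs, chr6:50566570-50566719, minus strand: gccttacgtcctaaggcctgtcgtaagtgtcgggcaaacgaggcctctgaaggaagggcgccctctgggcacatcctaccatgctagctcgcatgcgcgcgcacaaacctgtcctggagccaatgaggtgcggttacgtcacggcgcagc
Atp5h, chr11:115419920-115420069, minus strand: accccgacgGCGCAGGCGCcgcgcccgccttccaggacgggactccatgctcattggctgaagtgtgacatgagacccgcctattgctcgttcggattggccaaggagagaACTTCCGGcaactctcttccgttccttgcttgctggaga
Ndufs7, chr10:80249299-80249448, plus strand: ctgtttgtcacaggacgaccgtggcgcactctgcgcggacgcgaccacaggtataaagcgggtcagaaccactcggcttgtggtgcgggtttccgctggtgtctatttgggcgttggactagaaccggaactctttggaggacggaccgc
Uqcr11, chr10:80406822-80406971, minus strand: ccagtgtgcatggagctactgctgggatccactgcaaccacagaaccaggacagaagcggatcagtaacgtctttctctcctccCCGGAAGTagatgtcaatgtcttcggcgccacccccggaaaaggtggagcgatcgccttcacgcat
Atp5h holds an NRF1 match with its first base at position -141 from the start and an ETS match at -39, both read on the other strand. Uqcr11 holds an ETS match at position -66, and Ndufs7 a YY1 match at 24 after the start, outside the stretch shown. Ndufa12 and Cycs hold none of these motifs in full in the stretches shown. Only exact matches were searched for, so a site that differs from a motif by 1 base was not counted. The values below come from the brightest probe set of each symbol, which for Cycs, Atp5h and Uqcr11 is 1 of several and was not placed at the gene shown here.

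The main comparison set the early light (ZT0 and ZT4, 8 arrays) against the early dark (ZT12 and ZT16, 8 arrays). No single oxidative phosphorylation gene passed an adjusted p of 0.05, and the smallest adjusted p was 0.279. This was 0 of 83 genes, beside 8 of all 23410 transcripts (0.0342%). The differences were small and mostly of 1 sign. The mean was higher in the early light for 68 of the 83 genes, against 47.5% of all transcripts, and the median difference was 0.07, against -0.01 for all transcripts and 0.05 for the 2341 brightest. At an unadjusted p under 0.05, 13 genes were higher in the early light (4.67% of all transcripts) and 4 were lower (5.52%). Among the 2341 brightest transcripts, 72.6% had a mean above 0 and 14.1% were higher at this p, close to the 15.7% of the 83 genes. The 4 were Ndufs7, Uqcr11, Cox6b2 and Cox7b2. The range of the groups overlapped for every one of the 83 genes, as it did for nearly all transcripts (0.0256% were separate and higher, 0.0513% separate and lower). Without ZT0 replicate 4 the median difference was 0.09 and 25 genes were higher at this p, and without ZT12 replicate 4 the values were 0.04 and 4 genes. Leaving out ZT0 replicate 3, ZT4 replicate 1 or ZT16 replicate 1 gave 8 genes each. After a further quantile normalization, which gives all arrays the same spread, the median was 0.02, 49 genes had a mean above 0 and 4 were higher at this p.

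**Figure D1:**
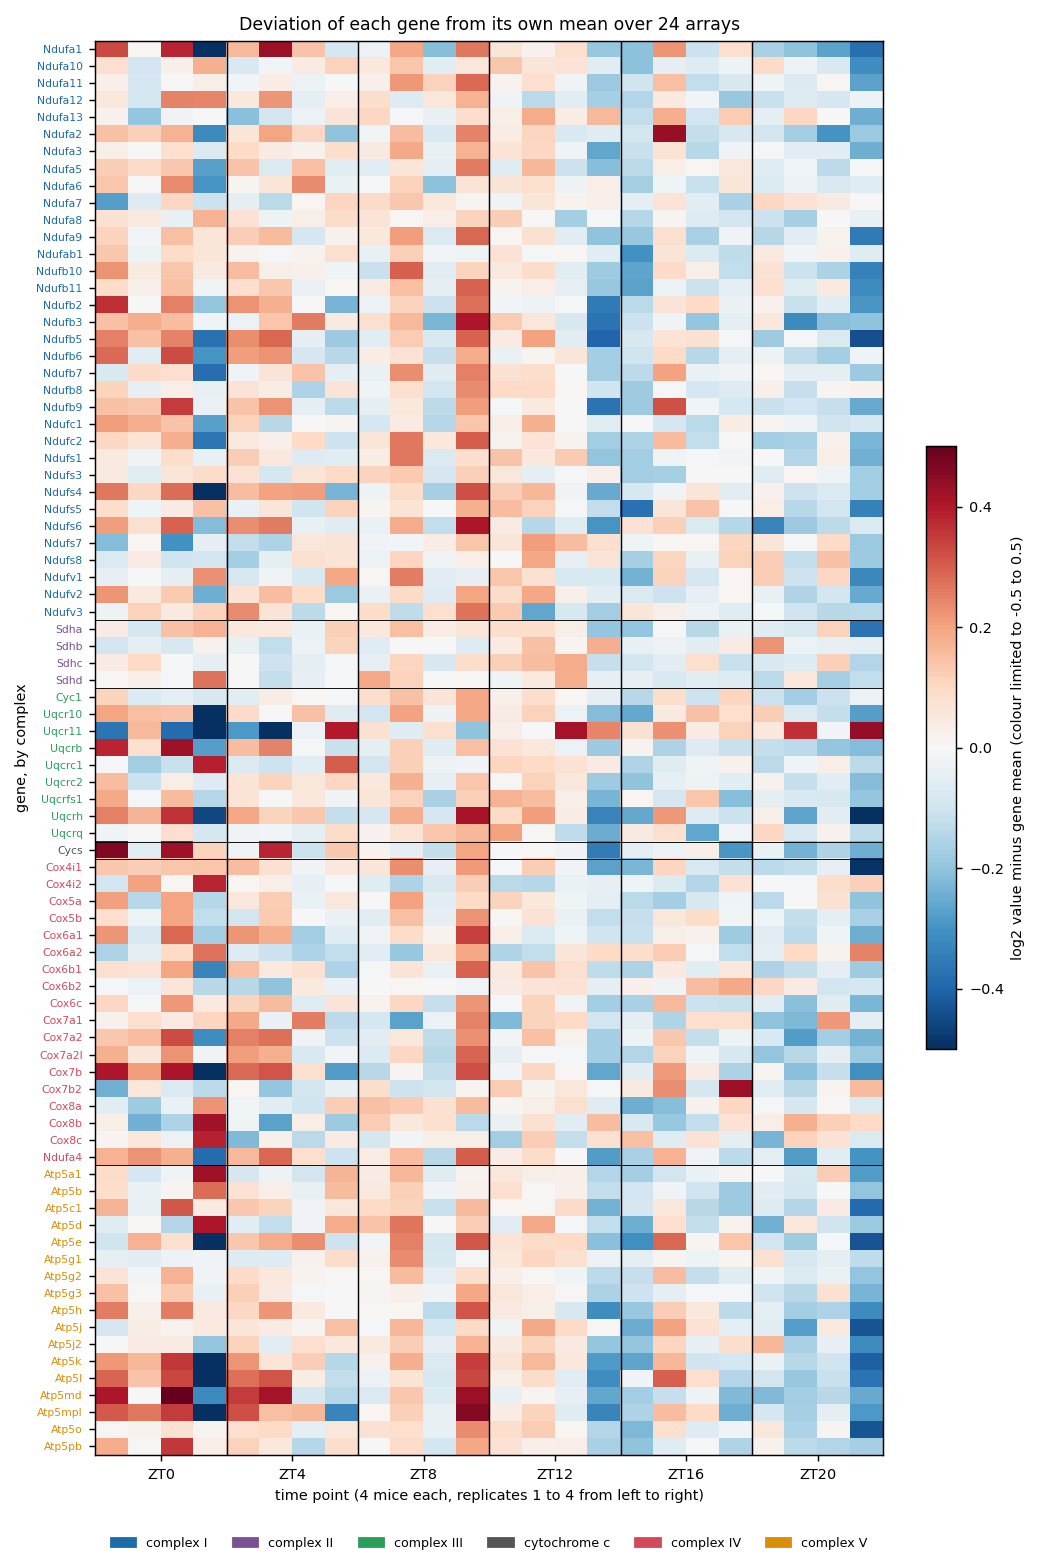
Each cell is the log2 value of 1 gene (rows, by complex) on 1 array (columns, 4 mice per time point) minus the mean of that gene over the 24 arrays, red above and blue below. Columns tend to share a colour from top to bottom: on ZT8 replicate 4, 75 of the 83 genes lay above their own mean, and on ZT20 replicate 4, 6 did.

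Within complex I, the entry point for electrons from NADH, 29 of 34 genes had a mean above 0 and the median difference was 0.06, which was 0.03 without ZT12 replicate 4 and 0.09 without ZT0 replicate 4. Ndufa12, an accessory subunit, had values of 8.61 to 8.95 (median 8.75) in the early light and 8.51 to 8.74 (median 8.60) in the early dark. Its highest 3 arrays were ZT0 replicates 3 and 4 and ZT4 replicate 2, and the groups overlapped. The difference was 0.17 (standard error 0.06, a 1.13-fold ratio; limma, adjusted p = 0.300). Ndufb3, an accessory subunit of the membrane arm, had values of 7.65 to 7.94 (median 7.82) in the early light and 7.31 to 7.81 (median 7.62) in the early dark, a difference of 0.19 (standard error 0.08). Its lowest value was that of ZT12 replicate 4.

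Ndufs7, a core subunit that carries an iron-sulfur cluster, differed from most of complex I in sign. Its values were 7.66 to 8.02 (median 7.88) in the early light and 7.94 to 8.17 (median 8.03) in the early dark. All 4 arrays at ZT0 (7.74, 7.97, 7.66 and 7.91) lay below all 4 at ZT12 (8.02, 8.17, 8.12 and 8.04), which 2.27% of all transcripts also did. The early light minus early dark difference was -0.17 (standard error 0.06; limma, adjusted p = 0.307). Of the 34 genes, 5 had means below 0 in this contrast: Ndufs7, Ndufa13, Ndufs8, Ndufa7 and Ndufb7.

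Complex II, succinate dehydrogenase, is shared with the citric acid cycle and is wholly encoded by the nucleus. Sdha, the flavoprotein that oxidises succinate, had values of 9.98 to 10.24 (median 10.12) in the early light and 9.87 to 10.16 (median 10.05) in the early dark, a difference of 0.10 (standard error 0.06). Sdhb, the iron-sulfur subunit, had 7.63 to 7.86 (median 7.71) in the early light and 7.70 to 7.93 (median 7.78) in the early dark, a difference of -0.07 (standard error 0.05). The membrane anchors Sdhc and Sdhd had differences of -0.03 (standard error 0.05) and 0.03 (standard error 0.05). The groups overlapped for all 4 genes, none passed an unadjusted p of 0.05, and 2 lay on each side of 0.

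In complex III, 7 of 9 genes had a mean above 0, with a median of 0.04, which was 0.00014 without ZT12 replicate 4 and 0.07 without ZT0 replicate 4. Leaving out ZT0 replicate 1 or 3 or ZT12 replicate 3 also lowered it by over 1.5 times, and leaving out ZT12 replicate 1 raised it so. Uqcr11 encodes the smallest subunit, and the probe set used for it had the largest difference of the 83 in either direction. Its values were 7.27 to 8.49 (median 7.77) in the early light and 8.09 to 8.51 (median 8.19) in the early dark. The early light arrays were widely spread, with ZT0 replicate 4 lowest and ZT4 replicate 4 highest. The difference was -0.38 (standard error 0.12, a ratio of 0.768; limma, adjusted p = 0.279). Without ZT0 replicate 2 it was -0.47 and passed an adjusted p of 0.05 (0.0463), and without ZT0 replicate 4 it was -0.30. A second, dimmer probe set of Uqcr11 gave -0.04 (standard error 0.06), and 0.01 in ZT8 minus ZT20 where the brighter one gave -0.24. The 2 probe sets disagreed, and which of them measures this gene was not settled. Uqcrb, a subunit at the ubiquinone site, had 9.33 to 10.03 (median 9.72) in the early light and 9.42 to 9.68 (median 9.56) in the early dark, a difference of 0.16 (standard error 0.08). Its lowest and highest early light values both came from ZT0, and without ZT0 replicate 4 the difference was 0.23. Uqcrc2, a core protein, had 9.46, 9.51, 9.45 and 9.50 at ZT4, against 9.19, 9.35, 9.37 and 9.34 at ZT16. These 4 and 4 arrays did not overlap, as for 1.59% of all transcripts (1.78% in the other direction), and the ZT0 and ZT12 arrays did overlap.

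Cycs encodes cytochrome c, the carrier between complexes III and IV. The values of its brightest probe set were 10.01 to 10.58 (median 10.24) in the early light and 9.77 to 10.15 (median 10.09) in the early dark. ZT0 replicates 1 and 3 and ZT4 replicate 2 were the highest 3 of the 24 arrays, and the other early light arrays lay between 10.01 and 10.25. The difference was 0.25 (standard error 0.08, a 1.19-fold ratio; limma, adjusted p = 0.296). Of the other 2 probe sets annotated to Cycs, 1 gave 0.24 (standard error 0.08) and the dimmest gave -0.19 (standard error 0.12), the opposite direction. Among the 18 genes with several probe sets, those of Cycs, Atp5pb, Ndufa11 and Ndufb11 differed in sign.

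**Figure D2:**
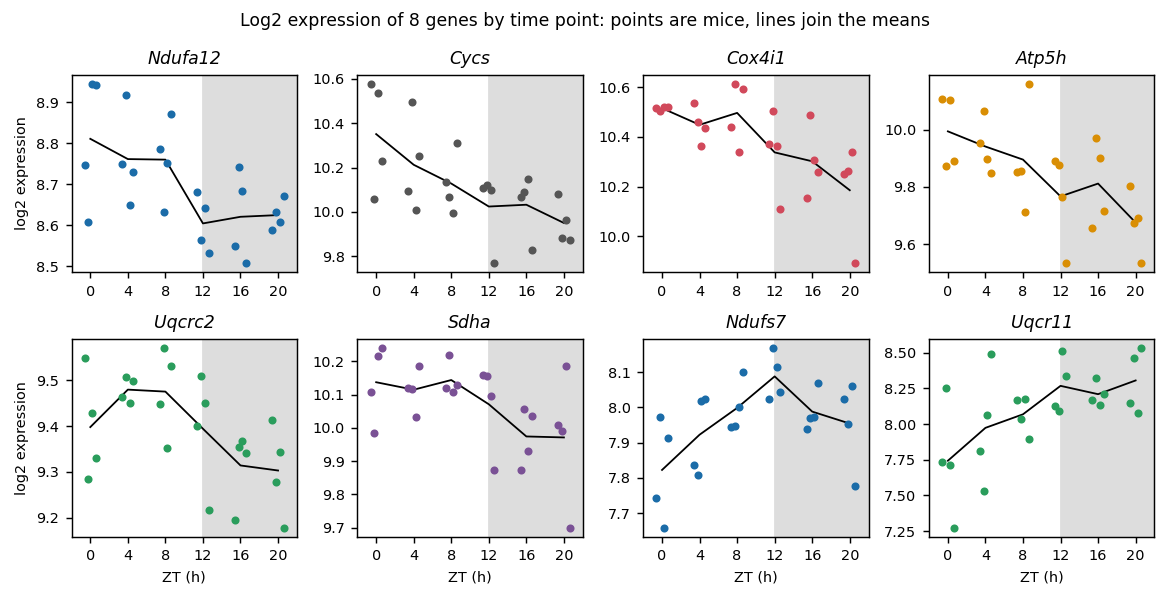
Log2 expression (y axis) by ZT in hours (x axis, dark phase shaded) for 8 genes, with 1 point per mouse and lines through the means of 4 mice. Ndufa12, Cycs, Cox4i1 and Atp5h have higher means in the light phase and Ndufs7 and Uqcr11 their lowest means at ZT0, and for each gene the points of the light and dark phases overlap. A gene with several probe sets is shown by its brightest.

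Complex IV, cytochrome c oxidase, has isoforms that differ between tissues. Over its 18 genes, 14 had a mean above 0, with a median of 0.08, which was 0.05 without ZT0 replicate 1 and 0.05 without ZT0 replicate 3. Cox4i1, the widely expressed form of a regulatory subunit, had 10.52, 10.50, 10.52 and 10.52 at ZT0, against 10.37, 10.50, 10.36 and 10.11 at ZT12. The ZT0 arrays were closely grouped and lay just above the highest ZT12 array, as for 1.29% of all transcripts. Over early light and early dark its difference was 0.16 (standard error 0.07; limma, adjusted p = 0.402). Cox4i2, the form known from lung, had 6.60 to 7.08 (median 6.70) in the early light and 6.55 to 6.77 (median 6.64) in the early dark, a difference of 0.13 (standard error 0.06). Its highest arrays were ZT0 replicates 4 and 2, and without replicate 4 the difference was 0.08.

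Cox6a1, the widely expressed form, had a difference of 0.10 (standard error 0.07), and Cox6a2, the form of heart and skeletal muscle, one of -0.03 (standard error 0.07). Cox7a1, also of muscle, had 0.08 (standard error 0.08) and its widely expressed relative Cox7a2 0.10 (standard error 0.08), each within 2 standard errors of 0. The difference of Cox7a2 was 0.16 without ZT0 replicate 4 and 0.05 without ZT0 replicate 3. Cox7a2l helps to join complexes III and IV into supercomplexes. It had 9.68 to 9.98 (median 9.88) in the early light and 9.59 to 9.87 (median 9.73) in the early dark. The difference was 0.14 (standard error 0.06). A second probe set of Cox7a2l, almost as bright (mean 9.73 against 9.76), gave 0.05 (standard error 0.06). Of the genes with lower values, Cox7b2 had 3.83 to 4.13 (median 3.99) in the early light and 3.99 to 4.50 (median 4.13) in the early dark, a difference of -0.19 (standard error 0.06). Its level lay among the 2341 dimmest transcripts of the array, which had a median of -0.04 in this contrast (12.6% lower at an unadjusted p under 0.05), and its difference was -0.13 after further quantile normalization. Cox6b2, known from testis, had a difference of -0.12 (standard error 0.05).

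Complex V had 15 of 17 genes above 0, with a median of 0.08. Atp5h, a subunit of the peripheral stalk, had 9.85 to 10.11 (median 9.92) in the early light and 9.54 to 9.97 (median 9.82) in the early dark. ZT12 replicate 4 was its lowest array of these 16. The difference was 0.18 (standard error 0.07, a 1.13-fold ratio; limma, adjusted p = 0.379). Atp5pb, another subunit of that stalk, had 10.24 to 10.74 (median 10.45) in the early light and 10.18 to 10.46 (median 10.35) in the early dark, a difference of 0.14 (standard error 0.06), while its second probe set gave -0.04 (standard error 0.05). Atp5md, a small subunit of the membrane part, had 9.72 to 10.62 (median 10.21) in the early light and 9.78 to 10.05 (median 9.96) in the early dark, a difference of 0.26 (standard error 0.10). Its lowest early light value, like that of Uqcrb, came from ZT0 replicate 4, without which the difference was 0.34.

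The 3 pairs of time points that lie 12 h apart share no arrays and divide the day in other ways. ZT0 minus ZT12 had a median of 0.05 with 58 genes above 0 (46.6% of all transcripts), and ZT4 minus ZT16 a median of 0.08 with 73 genes above 0 (50.4%). The 2341 brightest transcripts had medians of 0.02 (58.3% above 0) and 0.07 (82.8% above 0) in these pairs. The ZT0 minus ZT12 median was 0.00061 when ZT12 replicate 4 was left out, 0.02 for ZT0 replicate 1 and 0.01 for ZT0 replicate 3, and was 0.08 for ZT0 replicate 4. At an unadjusted p under 0.05, ZT0 minus ZT12 had 5 genes higher (3.84% of all transcripts) and 3 lower (4.62%), and ZT4 minus ZT16 had 2 higher (2.13%) and 2 lower (3.11%). ZT8 minus ZT20, which the main comparison does not use, had a median of 0.17 with 77 genes above 0 (49.7%), against -0.00067 over all transcripts and 0.08 in the 2341 brightest (80.1% above 0). At an unadjusted p under 0.05, 27 genes were higher at ZT8 (32.5% of the 83, against 2.03% of all transcripts and 6.79% of the 2341 brightest) and 0 were lower (2.24%). No gene of the 83 passed an adjusted p of 0.05 in any of the pairs, beside 8 transcripts (0.0342%) in ZT0 minus ZT12, 0 in ZT4 minus ZT16 and 1 (0.00427%) in ZT8 minus ZT20.

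By complex, the median of ZT8 minus ZT20 was 0.16 in complex I (34 of 34 genes above 0), 0.12 in complex II (3 of 4), 0.16 in complex III (8 of 9), 0.16 in complex IV (14 of 18) and 0.22 in complex V (17 of 17). The 6 genes below 0 were Sdhb, Uqcr11, Cox4i2, Cox6a2, Cox7b2 and Cox8b. All 4 ZT8 arrays lay above all 4 ZT20 arrays for 13 genes (1.79% of all transcripts), and the reverse held for 0 (1.82%). Cox4i1 had 10.44, 10.61, 10.34 and 10.59 at ZT8, against 10.25, 10.26, 10.34 and 9.89 at ZT20. Its ZT8 replicate 3 lay just above ZT20 replicate 3, and the difference was 0.31 (standard error 0.09, a 1.24-fold ratio; limma, adjusted p = 0.999). Cyc1, the cytochrome subunit of complex III, was chosen after its values were seen, since it had the smallest p of the 83. It had 8.96, 9.02, 8.94 and 9.07 at ZT8, against 8.77, 8.71, 8.77 and 8.84 at ZT20, a difference of 0.23 (standard error 0.07; limma, adjusted p = 0.999). In early light minus early dark the same gene had -0.02 (standard error 0.05).

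The ZT8 minus ZT20 counts rested on a few arrays. Of the 27 genes higher at an unadjusted p under 0.05, the count was 6 without ZT8 replicate 4, 6 without ZT20 replicate 4, 11 without ZT8 replicate 2 and 11 without ZT20 replicate 2, while the median stayed between 0.12 and 0.20 whichever array was left out. After a further quantile normalization 77 genes again had a mean above 0, the median was 0.10 and 13 genes were higher at this p. The difference between the pairs was also tested, a test added after the values were seen. ZT8 minus ZT20 exceeded ZT0 minus ZT12 by a median of 0.12 and ZT4 minus ZT16 by a median of 0.08, and no gene of the 83 passed an adjusted p of 0.05 in either test (2 and 0 transcripts of all did).

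**Figure D3:**
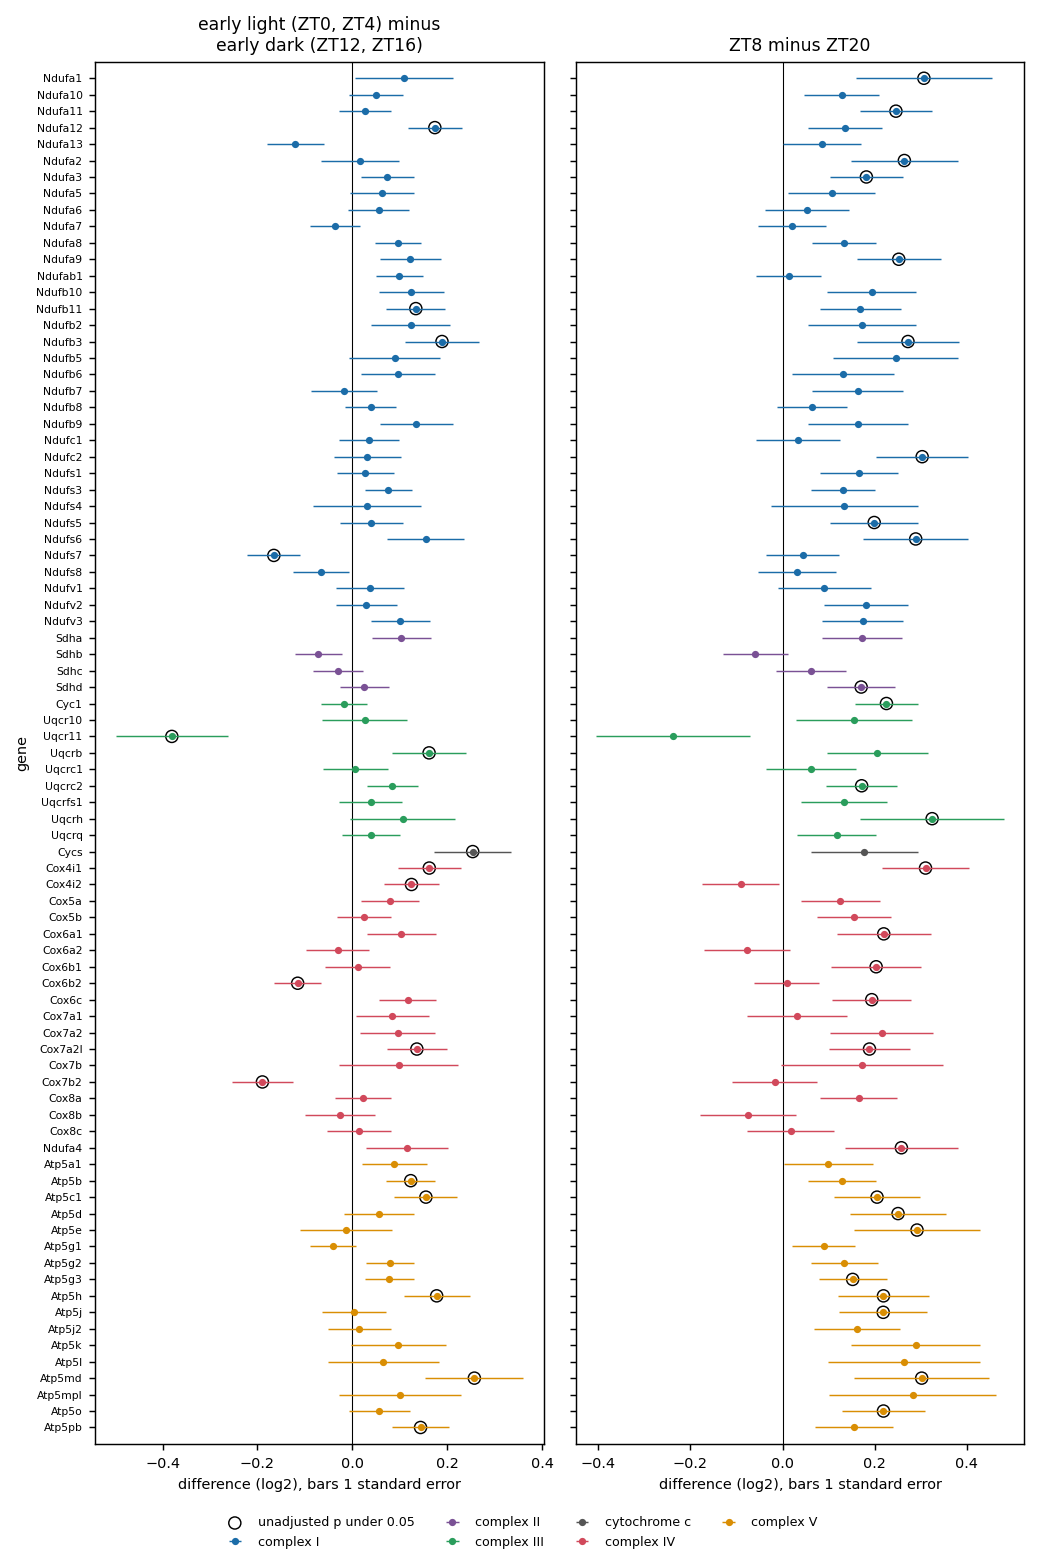
Difference on the log2 scale (x axis) for each of the 83 genes (y axis, coloured by complex), early light minus early dark at left and ZT8 minus ZT20 at right, with bars of 1 standard error and circles at an unadjusted p under 0.05. In the left panel 68 genes lie above 0 and in the right panel 77.

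Complexes I, III, IV and V tended to lie on the same side of their means within an array. The median over the 83 genes of each array's deviation from the gene means was 0.05 ± 0.08 at ZT0, 0.03 ± 0.04 at ZT4, 0.06 ± 0.11 at ZT8, -0.01 ± 0.11 at ZT12, -0.04 ± 0.08 at ZT16 and -0.10 ± 0.07 at ZT20 (SD, n = 4 mice each). All 4 ZT20 arrays lay below 0, from -0.20 to -0.05. Mice of 1 time point differed widely: at ZT8 the values ran from -0.05 (replicate 3, 19 of 83 genes above their mean) to 0.18 (replicate 4, 75 of 83), and at ZT12 from -0.16 to 0.08. The medians of complexes I, III, IV and V were all above 0 on 9 arrays, all below 0 on 9 and of mixed sign on 6. Complex II, left out of this count, had its highest mean deviation at ZT12 (0.05 ± 0.09). It lay below 0 at ZT4 (-0.02 ± 0.07), ZT16 (-0.05 ± 0.01) and ZT20 (-0.05 ± 0.07; SD, n = 4 mice each). The 2341 brightest transcripts moved along on several of the same arrays. Their median deviation was -0.19 on ZT20 replicate 4 (the 83 genes: -0.20), 0.12 on ZT0 replicate 1 (0.09) and 0.11 on ZT0 replicate 3 (0.13), but 0.05 on ZT8 replicate 4 (0.18). The spread of all transcripts moved along with these values at ZT20, where its SD was 1.33 to 1.40, against 1.38 to 1.43 at ZT8, and its part in the result was not tested beyond the further quantile normalization. After that step the medians were 0.06 ± 0.08 at ZT8 and -0.06 ± 0.02 at ZT20 (SD, n = 4 mice each).

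**Figure D4:**
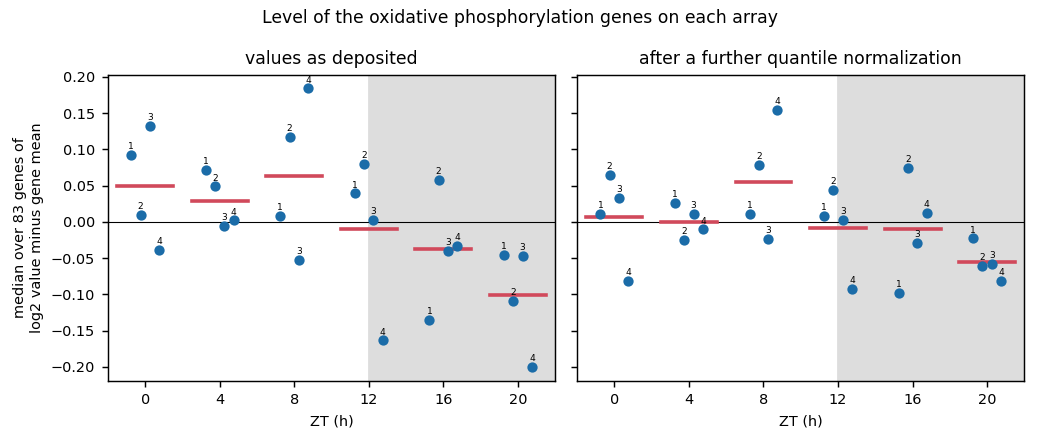
Median over the 83 genes of the log2 value minus the gene mean (y axis) for each array, by ZT in hours (x axis, dark phase shaded), with replicate numbers beside the points and red bars for the mean of 4 mice. All 4 ZT20 arrays lie below 0 in both panels, and the ZT0 and ZT4 means lie near 0 after the further quantile normalization.

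A 24-h cosine curve was also fitted to each transcript. No gene of the 83 passed an adjusted p of 0.05 (smallest 0.411), beside 7 of all transcripts (0.0299%), and 25 genes had an unadjusted p under 0.05, against 8.91% of all transcripts. After further quantile normalization 5 genes had such a p, and 5 with time point as a factor in place of the curve. Among the 2341 brightest transcripts the share was 15.5%, and without ZT8 replicate 4 the count of the 83 was 16. The fitted peak lay between ZT3 and ZT9 for 67 genes (24.8% of all transcripts). Peak-to-trough folds of the fitted curves ran from 1.04 to 1.36 with a median of 1.12. The mean was highest at ZT8 for 34 genes (13.7% of all transcripts) and at ZT0 for 24 (18.5%), and lowest at ZT20 for 54 (17.8%). It was lowest at ZT0 for 7 genes (21.9%) and highest at ZT20 for 3 (19.7%).

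The genes with the smallest p in this fit were Ndufs7, Cox4i1 and Uqcrc2. Ndufs7 peaked at ZT 12.2 (standard error 1.12 h; limma, adjusted p = 0.411), Cox4i1 at ZT 5.09 (standard error 1.13 h; adjusted p = 0.416) and Uqcrc2 at ZT 6.00 (standard error 1.16 h; adjusted p = 0.421). The brightest probe set of Uqcr11 had its fitted peak at ZT 14.5 (standard error 1.23 h), in the dark phase, with the largest fold of the 83 (1.36). That of Cycs peaked at ZT 2.89 (standard error 1.25 h). Curves of their other probe sets are not given. In early light minus early dark, the other probe set of Uqcr11 had -0.04 and those of Cycs 0.24 and -0.19. The peak of Ndufs7 thus lay close to lights off, and that of the Uqcr11 probe set in the dark phase. Those of Cox4i1, Uqcrc2 and the Cycs probe set lay in the light phase.

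**Figure D5:**
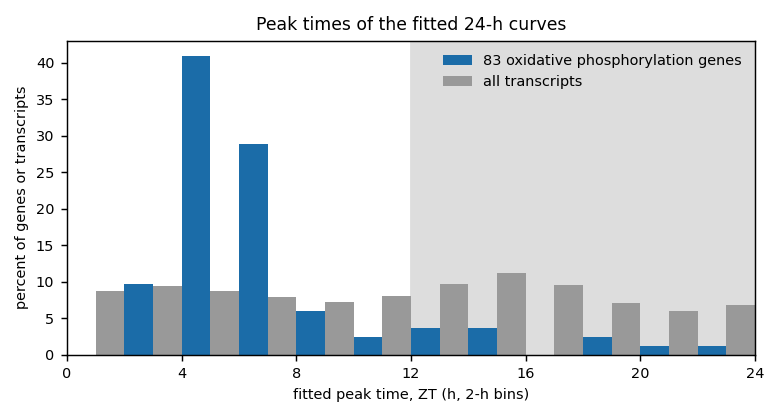
Share (y axis, percent) of the 83 genes (blue) and of all transcripts (grey) whose fitted 24-h curve peaks in each 2-h bin of ZT (x axis, hours, dark phase shaded). The bins from ZT4 to ZT8 hold 34 and 24 of the 83 genes, and the curves of all transcripts are included whether or not they passed a test.

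Genes linked to oxidative phosphorylation gave mixed values. ND3 and COX2, subunits of complexes I and IV encoded by mitochondrial DNA, were the 2 such genes with a probe set annotated to them alone (probe sets that also name another gene, as for ATP6 and ND6, were not used), and both had higher means in the early light, by 0.19 (standard error 0.07; limma, adjusted p = 0.337) and 0.13 (standard error 0.05; adjusted p = 0.369). Their means at the 6 times, from ZT0 to ZT20, were 11.99, 11.98, 11.82, 11.80, 11.80 and 11.78 for ND3. For COX2 they were 13.01, 12.96, 12.90, 12.85, 12.86 and 12.81. Their ZT8 minus ZT20 differences were 0.04 (standard error 0.10) and 0.09 (standard error 0.07).

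Assembly factors, which build the complexes without being part of them, had 21 of 42 genes above 0 in early light minus early dark (median 0.0045) and 30 of 42 above 0 in ZT8 minus ZT20 (median 0.05). Carriers and kinases that move ATP and metabolites had 9 of 12 (median 0.04) and 11 of 12 (median 0.15). Among 16 regulators of mitochondrial gene expression, 4 had a mean above 0 in the early light (median -0.04) and 11 a higher mean at ZT8 than at ZT20 (median 0.03). The coactivator gene Ppargc1a had -0.12 (standard error 0.11), Nrf1 0.11 (standard error 0.07), Gabpa -0.09 (standard error 0.12) and the nuclear receptor gene Esrra -0.04 (standard error 0.06), and none passed an unadjusted p of 0.05. No gene of these lists passed an adjusted p of 0.05 in either contrast.

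Cytosolic ribosomal protein genes are also bright on the array. In early light minus early dark, 42 of 55 were above 0, with a median of 0.06, close to that of the 83 genes. In ZT8 minus ZT20, 50 of 55 were above 0, with a median of 0.13 against 0.17 for the 83 genes. There, 4 of 55 were higher at an unadjusted p under 0.05, against 27 of the 83 genes and 2.03% of all transcripts. Cell type markers were read alongside. The 7 measured oligodendrocyte markers had array means of 8.78 to 8.98 at ZT8 and 8.66 to 8.73 at ZT20, without overlap. Of them, 6 of 7 were above 0 in ZT8 minus ZT20, with a median of 0.05, against 0.08 in the 2341 brightest transcripts. Opalin, Mog and Mag were higher at ZT8 at an unadjusted p under 0.05 (2.03% of all transcripts). The 8 general neuron markers had means of 10.51 to 10.63 at ZT8 and 10.35 to 10.54 at ZT20. Of these, 8 of 8 were above 0, with 2 higher at an unadjusted p under 0.05 (2.03% of all transcripts). The 9 dopamine neuron markers had means of 7.78 to 7.93 at ZT8 and 7.79 to 8.01 at ZT20, with 4 of 9 above 0. Astrocyte (8.45 to 8.62 at ZT8 and 8.34 to 8.56 at ZT20), microglia (6.72 to 6.81 and 6.67 to 6.78) and endothelium markers (7.27 to 7.48 and 7.26 to 7.41) overlapped. In early light and early dark all 6 marker lists overlapped. At an unadjusted p under 0.05, 2 of 7 microglia and 1 of 7 endothelium markers were higher in the early light (4.67% of all transcripts). The dimmest marker was Aif1, with a mean of 5.94 over all arrays, below the array medians of all transcripts (6.71 to 6.79). The part of the markers in the values of the 83 genes was not tested.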

How the data were processed

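The authors hybridised RNA of 24 VTA punches, 1 per mouse, to Mouse Gene ST arrays and deposited log2 values per probe set made with RMA (background correction, quantile normalization and median polish) in R 2.13.1, per the labels. Of 35556 probe sets, 23410 with an annotated gene were tested (12146 have none, 1621 have several). No filter on low values was applied, and no column was left unmapped (0). Members matched the GRCm38.p6 gene table (83 of 83).

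All fits used limma 3.58.1 in R 4.3.3, and plots matplotlib 3.10.9. A fit with 1 mean per time point gave early light minus early dark and the pairs 12 h apart. A 24-h cosine fit, tested by the moderated F-test, took the place of CircWave, which the study used. Unless called unadjusted, p-values were adjusted over every transcript by the method of Benjamini and Hochberg. Fits were tested on simulated data.

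The genes named are, by rule, the 3 smallest p of complexes I, III, IV and V in the main contrast, the 3 smallest in the cosine fit, the 2 lowest differences, complex II, Cycs, isoforms of complex IV, mitochondrially encoded genes and 4 regulators. Members and lists were chosen with earlier results of these data known. Replicate numbers were not taken to pair the mice. Of 60 same-number pairs of arrays, 14 correlated above 0.1, in a measure other than the plain array correlations given earlier. The matching share of pairs of different numbers is not given, so this count was not set against it. The median of the same-number pairs was 0.026 (range -0.30 to 0.58), against -7.1e-05 for pairs of different numbers. These correlations cannot show whether mice of the same number were handled together.

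Alternatives were other tests, a replicate block, all probe sets, bright transcripts, further quantile normalization, centred array medians, array weights, robust eBayes, late light minus late dark, all probe sets of a gene averaged, 76 members without accessory and tissue-limited ones, and leaving out each array or time point. Late light minus late dark compared ZT4 and ZT8 with ZT16 and ZT20, so it used other hours than the main contrast. Precision is limited by having 4 arrays at each time.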

Additional observations from a re-analysis of the deposited data

Results flagged for a closer look

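Of 144 groups of 4 arrays examined for the named genes, 5 held 1 array far from the other 3, where chance gives about 1 in 20. Sdhd was 7.96 on ZT0 replicate 4, against 7.68 to 7.71 on the other ZT0 arrays. Cycs was 9.77 on ZT12 replicate 4, against 10.10 to 10.12 on the others. Uqcrc2 was 9.19 on ZT16 replicate 1, against 9.34 to 9.37. On ZT20 replicate 1, Atp5pb was 10.40, against 10.22 to 10.25, and Sdhb was 7.98, against 7.71 to 7.72. The cause was not tested.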

How the results depend on the processing

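No oxidative phosphorylation gene passed an adjusted p of 0.05 under any alternative except Uqcr11 in early light minus early dark without ZT0 replicate 2, so the count of such genes ran from 0 to 1 over the left-out arrays. The signs of the medians over the 83 genes held in all 4 contrasts under every alternative run. Early light minus early dark had 13 genes higher at an unadjusted p under 0.05 as reported. It had 4 after further quantile normalization, 30 with array weights, 3 without all of ZT0 or all of ZT16, and 4 to 25 over the left-out arrays. Late light minus late dark, a contrast of other hours, had 37. For ZT8 minus ZT20 the 27 became 13 after further quantile normalization and 6 to 37 over the left-out arrays. For the 24-h rhythm the 25 became 5 with time point as a factor, 5 after further quantile normalization, 13 without all of ZT8 and 10 without all of ZT20, and 16 to 36 over the left-out arrays.

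Counts of all transcripts passing an adjusted p of 0.05 moved as well. Early light minus early dark called 8 as reported, 14 with a replicate block, 2 with all probe sets and 14 above the median level. It called 20 after further quantile normalization and 45 with array weights. Without all of ZT0, ZT4, ZT8 and ZT12 it called 4, 0, 3 and 0, and over the left-out arrays 2 to 134 (134 without ZT0 replicate 2). Late light minus late dark, over other hours, called 0. ZT0 minus ZT12 called 8 as reported, 3 with a replicate block, 0 with all probe sets, 1 with centred medians, 15 with array weights and 0 to 34 over the left-out arrays. ZT4 minus ZT16 called 0 as reported, 2 with a replicate block, 2 with array weights and 0 to 2 over the left-out arrays. ZT8 minus ZT20 called 1 as reported, 0 with a replicate block, 0 with all probe sets, 0 after further quantile normalization and 0 to 1 over the left-out arrays. The 24-h rhythm called 7 as reported, 1 with time point as a factor, 4 with all probe sets, 17 after further quantile normalization, 18 with array weights, 4, 2, 0 and 2 without all of ZT0, ZT4, ZT8 and ZT12, and 4 to 12 over the left-out arrays. The replicate block changed no call among the 83 genes, and 8 of 24 arrays correlated best with an array of their own number. No share expected by chance is given for the latter count.

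Some differences of named genes near 0 changed sign. In early light minus early dark, Sdhd was -0.0103 with array weights, -0.0330 without all of ZT0, -0.0247 without all of ZT16 and -0.00732 to 0.0484 over the left-out arrays. Sdhc was 0.0346 without all of ZT12, and Cox6a2 was 0.0472 without all of ZT4 and -0.0686 to 0.00202 over the left-out arrays. In late light minus late dark, which compares other hours, Sdhc was 0.0328 and Cox4i2 was -0.0264. In ZT8 minus ZT20, Cox7b2 was 0.0562 after further quantile normalization, 0.0361 with array weights and -0.0615 to 0.0384 over the left-out arrays, and Cox6b2 was -2.85e-05 with array weights and -0.0186 to 0.0463 over the left-out arrays. Over the left-out arrays Cox7a1 ran from -0.0632 to 0.125, Sdhb from -0.0833 to 0.00687 and Ndufs7 from -0.0146 to 0.0801. The causes were not tested.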
